A study of Cavia porcellus with 30 samples.

Results

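Of 25824 transcripts measured in guinea pig liver, 54 were at least 3-fold higher 9 h after a high dose of thioacetamide and lay near the vehicle level at 33 h. They were chosen from mean levels of the high dose and vehicle animals, in TPM (reads per unit of transcript length, scaled to a common total). A ratio of high dose to vehicle, with 0.1 TPM added to each mean, had to reach 3 at 9 h and lie between 0.67 and 1.5 at 33 h, and the high dose mean at 9 h had to reach 1 TPM. The rule used 20 animals and left out the 10 low dose animals. The rise over vehicle at 9 h and the level near vehicle at 33 h in the high dose animals are therefore properties of the selection. They are given here as a description without a test. The rule did not require the high dose level itself to fall between the times.

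The animals were 30 Hartley guinea pigs, a laboratory breed, in 6 groups of 5, with 1 liver library per animal. They received saline vehicle at 3 ml/kg, a low dose of 25 mg/kg thioacetamide or a high dose of 100 mg/kg, and liver RNA was collected at 9 h or 33 h. The labels name no genetic change, and age and sex were not used. Thioacetamide is a liver toxicant that becomes harmful once hepatocyte enzymes have oxidised it, and the series used it for graded injury. Library totals were 21352824 to 33842322 estimated counts. In whole tissue, a change in the number of cells of a type and a change in RNA per cell cannot be told apart.

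A short-lived rise is a familiar form of the liver's response to a toxic dose. Signalling after cell stress switches on genes for transcription factors, stress proteins and regulators of signalling, many of whose RNAs are unstable, so that their levels fall when the stimulus ends. Which of the 54 transcripts belong to such genes is not known here. The files give Ensembl transcript identifiers, and 0 of these matched the gene table used here, so the transcripts are described by level, length, dose and time. For the same reason no liver or other cell type marker was checked, and no sequence is shown. Only 4 members are named by identifier, and the others are called by their length in bases.

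The 9 h threshold was met by 893 transcripts, of which 562 also reached 1 TPM. Of these, 498 had a 33 h ratio above 1.5 and 10 a ratio below 0.67, which left the 54 members. Their 9 h ratios ran from 3.05 to 19.3 with a median of 4.10. Their 33 h ratios ran from 0.819 to 1.49 with a median of 1.21, above 1 in 41 members and below 1 in 11. Just inside the 9 h limit, a 345-base transcript had a ratio of 3.05, at 171 against 56.1 TPM. Just outside it, a 933-base transcript had a ratio of 2.99, at 1.57 against 0.458 TPM. At the 33 h limit, a member of 4049 bases had a ratio of 1.49, and a transcript of 2786 bases with a ratio of 1.504 was left out.

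**Figure D1:**
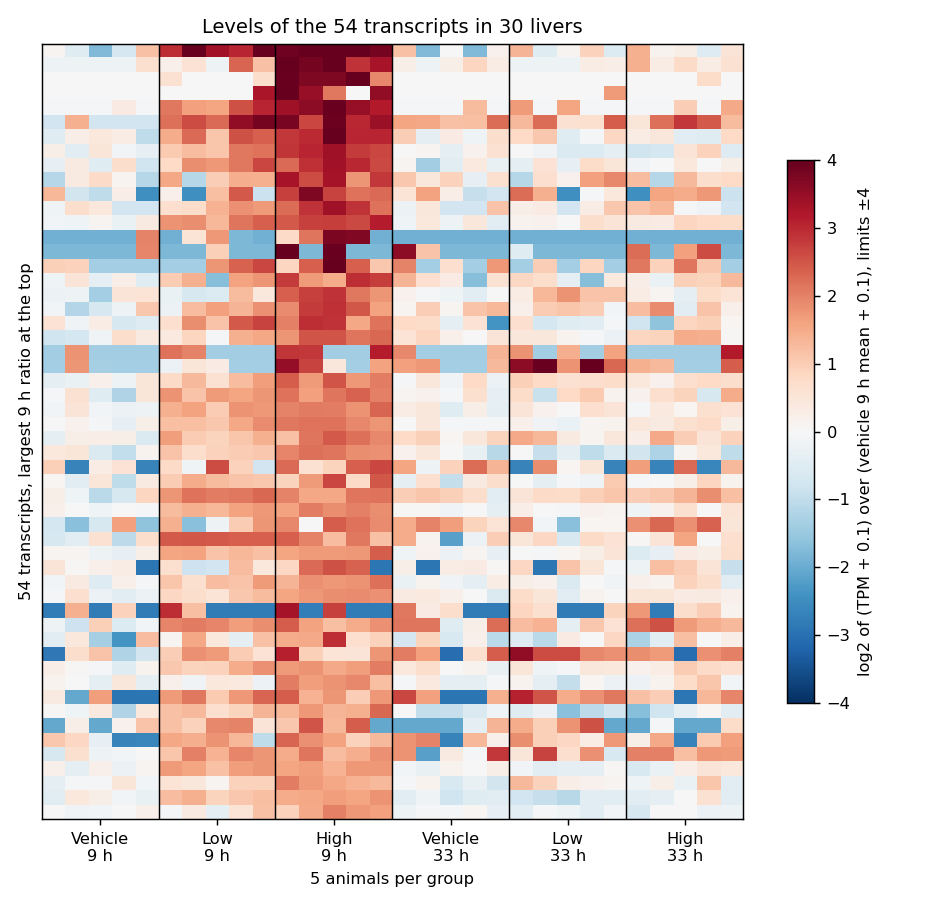
Levels of the 54 members (rows, largest 9 h ratio at the top) in the 30 animals (columns, 5 per group), as log2 of (TPM + 0.1) over (vehicle 9 h mean + 0.1). The high dose 9 h block is the most strongly raised by construction, and the low dose 9 h block is raised in most rows. Dark cells outside the 9 h treated groups mark values far from the vehicle 9 h mean, in single animals or in a group of 33 h as a whole.

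Levels spanned a wide range. At the high dose, 9 h, 9 members had means of at least 100 TPM, 8 lay between 10 and 100 TPM, 17 between 2 and 10 TPM and 20 between 1 and 2 TPM. The 9 abundant members carried 90.3% of the summed TPM of the 54 at that dose and time and 91.0% in the 9 h vehicle animals. Counts behind the rarest members were few: 13 members had under 100 counts over the 5 high dose libraries together, the lowest 7.72 and the median member 509. At 9 h, 2 members were at 0 in all 5 vehicle libraries.

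The summed level followed dose at 9 h and lay close to vehicle at 33 h after the low dose. Vehicle animals at 9 h had sums of 973, 1211, 1155, 1258 and 1184 TPM, low dose animals 2261, 2444, 1864, 2791 and 3087 TPM, and high dose animals 4115, 4839, 5070, 4259 and 4595 TPM. The 3 groups did not overlap. At 33 h the sums were 1260, 1487, 990, 1044 and 1119 TPM in vehicle animals, 1384, 1205, 968, 1059 and 1053 TPM at the low dose, and 1269, 1345, 1789, 2133 and 1084 TPM at the high dose. The 33 h groups overlapped, and high dose animals 3 and 4 lay above every vehicle animal of that time. Group means were 1156 ± 109 TPM (vehicle), 2489 ± 472 TPM (low) and 4576 ± 396 TPM (high) at 9 h, and 1180 ± 199, 1134 ± 164 and 1524 ± 428 TPM at 33 h (SD, n = 5 each). The vehicle and high dose values were set by the selection, while the low dose animals had no part in it. The 45 members under 100 TPM, which the sum hardly reflects, had a mean sum of 104 TPM in vehicle animals, 281 TPM at the low dose and 443 TPM at the high dose at 9 h, and 135, 138 and 172 TPM at 33 h.

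**Figure D2:**
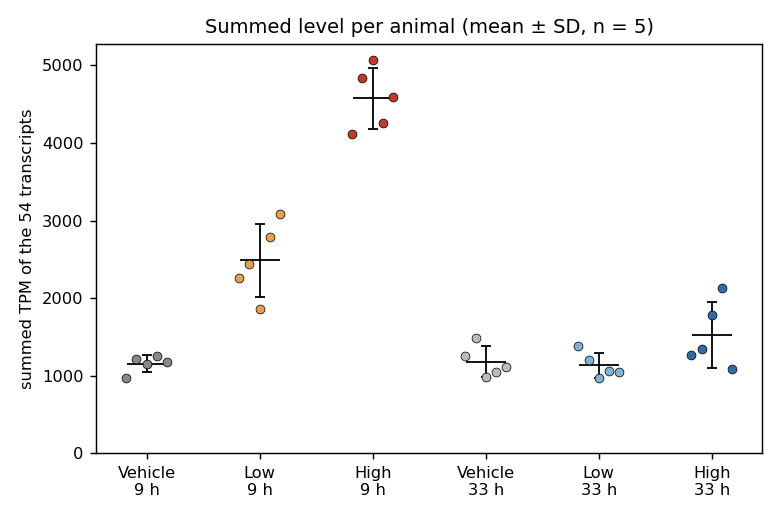
Summed TPM of the 54 members per animal (points), with the mean ± SD of 5 animals (bars), by dose and time. Low dose animals at 9 h lie between 1864 and 3087 TPM, all above the low dose animals at 33 h, which lie between 968 and 1384 TPM.

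The comparison that shares no animal with the rule sets low dose livers at 9 h against low dose livers at 33 h. In it 26 members were higher at 9 h and 1 was lower (edgeR quasi-likelihood test, adjusted p under 0.05 over 18239 transcripts), against a background of 12.7% of all tested transcripts higher and 13.6% lower. A minimum count left 44 of the 54 members to be tested, so the rises were 59.1% of those tested. The median log2 fold change of the tested members was 1.41 with quartiles of 0.69 and 1.94, and that of all tested transcripts was -0.00 with quartiles of -0.30 and 0.34. With library totals in place of TMM scaling the medians were -0.14 for all transcripts and 1.27 for the members, a distance of 1.41 under either scaling. In mean TPM, 45 of the 54 were higher at 9 h and 9 lower.

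Part of the tested set reached the minimum count only because of the treated animals at 9 h, which favours a higher value there. That was so for 10 of the 44, of which 4 were called. The other 34 would have been tested without those animals, and 22 of them (64.7%) were higher at 9 h, against 12.6% of 17716 transcripts that met the same condition. The 10 untested members had lengths of 141 to 906 bases and high dose 9 h means of 1.12 to 2.53 TPM. With no count filter all 54 were tested and the number higher was again 26, with 0 lower (edgeR, with 1 lower at an unadjusted p under 0.05). DESeq2 called 28 higher and limma voom 27, and both called 0 lower, with 2 lower at an unadjusted p under 0.05 in each.

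Separation between animals was also counted on deposited TPM. Every low dose animal at 9 h was above every low dose animal at 33 h for 20 members, all among the 44 tested (45.5%), against a background of 3.50%. The opposite separation held for 2 members (4.55%), against 17.3%. TPM carries no TMM scaling, and the TMM factors of low dose livers were 0.978 to 1.23 at 33 h and 0.944 to 1.05 at 9 h. Their part in the unequal backgrounds was not tested.

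**Figure D3:**
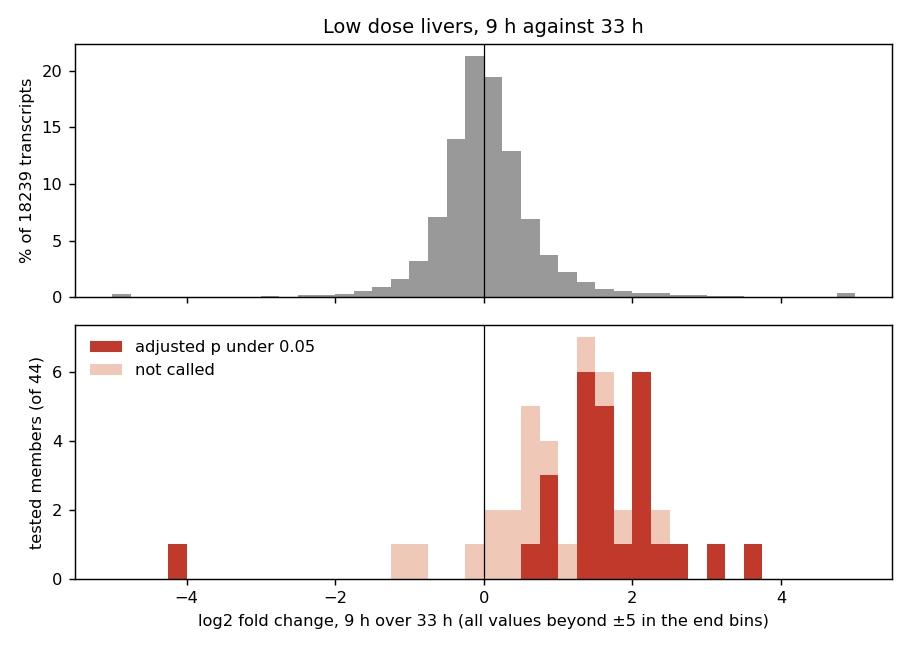
Log2 fold changes of low dose livers, 9 h over 33 h, for all 18239 tested transcripts (top, percent) and for the 44 tested members (bottom, number; dark where adjusted p was under 0.05). All transcripts centre on 0, while 40 of the 44 members lie above 0 and the only called member below 0 is at -4.12.

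The named transcripts show the forms the pattern took. ENSCPOT00000020421.2, of 963 bases, had the smallest adjusted p between the low dose groups among the members and was named for it, as the next transcript was for the second smallest. At 9 h it measured 231, 422, 372, 294 and 256 TPM in vehicle animals, 743, 837, 589, 672 and 733 TPM at the low dose, and 885, 913, 999, 949 and 1100.3 TPM at the high dose. At 33 h it measured 232, 279, 181, 223 and 233 TPM in vehicle animals, 185, 167, 145, 230 and 230 TPM at the low dose, and 234, 247, 314, 476 and 237 TPM at the high dose. No 9 h group overlapped another, and every 33 h value lay below every 9 h treated value. After the low dose the mean fell from 715 ± 91.8 TPM to 191 ± 37.8 TPM between 9 h and 33 h (SD, n = 5 per time). On the log2 scale 9 h exceeded 33 h by 2.14 ± 0.17 (SE, edgeR adjusted p = 4.28e-09). At 33 h the low dose animals were lower than vehicle by a log2 fold change of -0.67 ± 0.17 (SE, edgeR adjusted p = 0.00359).

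ENSCPOT00000013657.3, of 3335 bases, reached overlapping levels at both doses at 9 h. Vehicle animals at 9 h measured 5.31, 3.59, 5.34, 3.92 and 5.02 TPM, low dose animals 15.4, 14.1, 10.5, 15.1 and 16.0 TPM, and high dose animals 13.9, 15.1, 12.4, 15.6 and 15.8 TPM. At 33 h vehicle animals measured 4.27, 3.79, 5.06, 4.63 and 5.53 TPM, low dose animals 4.33, 3.42, 3.58, 3.60 and 4.78 TPM, and high dose animals 3.03, 3.80, 5.59, 6.62 and 6.22 TPM. The doses overlapped at 9 h, all 10 treated animals stood above all vehicle animals, and the 33 h groups overlapped. The low dose difference between times was 2.09 ± 0.17 on the log2 scale (SE, edgeR adjusted p = 5.71e-09), and that of high over low dose at 9 h was 0.20 ± 0.16 (SE, edgeR adjusted p = 0.516).

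ENSCPOT00000025604.2, of 543 bases, had the largest 9 h ratio, 19.3. It measured 0.272, 0.146, 0, 0.118 and 0.681 TPM in vehicle animals at 9 h, 2.57, 6.80, 3.39, 2.73 and 5.43 TPM at the low dose, and 4.95, 6.19, 10.2, 6.46 and 4.79 TPM at the high dose. At 33 h it measured 0.671, 0, 0.237, 0 and 0.287 TPM in vehicle animals, 0.781, 0.145, 0.269, 0.556 and 0.135 TPM at the low dose, and 0.812, 0.281, 0.307, 0.139 and 0.386 TPM at the high dose. Every 9 h treated animal stood above every other animal, and the remaining 4 groups overlapped. The low dose value at 9 h exceeded that at 33 h by 3.60 ± 0.71 on the log2 scale (SE). Since this transcript reached the minimum count only through the treated groups of 9 h, that difference is given as a description. The 5 high dose libraries at 9 h held 250 counts of it in all.

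ENSCPOT00000043645.1, of 429 bases, was the most abundant member, and its low dose animals overlapped other groups. At 9 h vehicle animals measured 149, 157, 235, 422 and 328 TPM, low dose animals 337, 464, 252, 690 and 752 TPM, and high dose animals 873, 1478, 1472, 1132 and 1269 TPM. At 33 h vehicle animals measured 381, 467, 298, 262 and 366 TPM, low dose animals 357, 351, 286, 242 and 217 TPM, and high dose animals 466, 474, 727, 707 and 269 TPM. Low dose animals at 9 h overlapped both the vehicle animals of 9 h and the low dose animals of 33 h, while all high dose animals at 9 h stood above all others. The low dose difference between times was 0.99 ± 0.30 on the log2 scale (SE, edgeR adjusted p = 0.0166), and it rested on single animals, at 0.82 (adjusted p = 0.0614) without low dose animal 4 and 0.76 (adjusted p = 0.0743) without animal 5 of 9 h. Its counts were not whole numbers in every library, so some of its reads are shared with other transcripts.

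**Figure D4:**
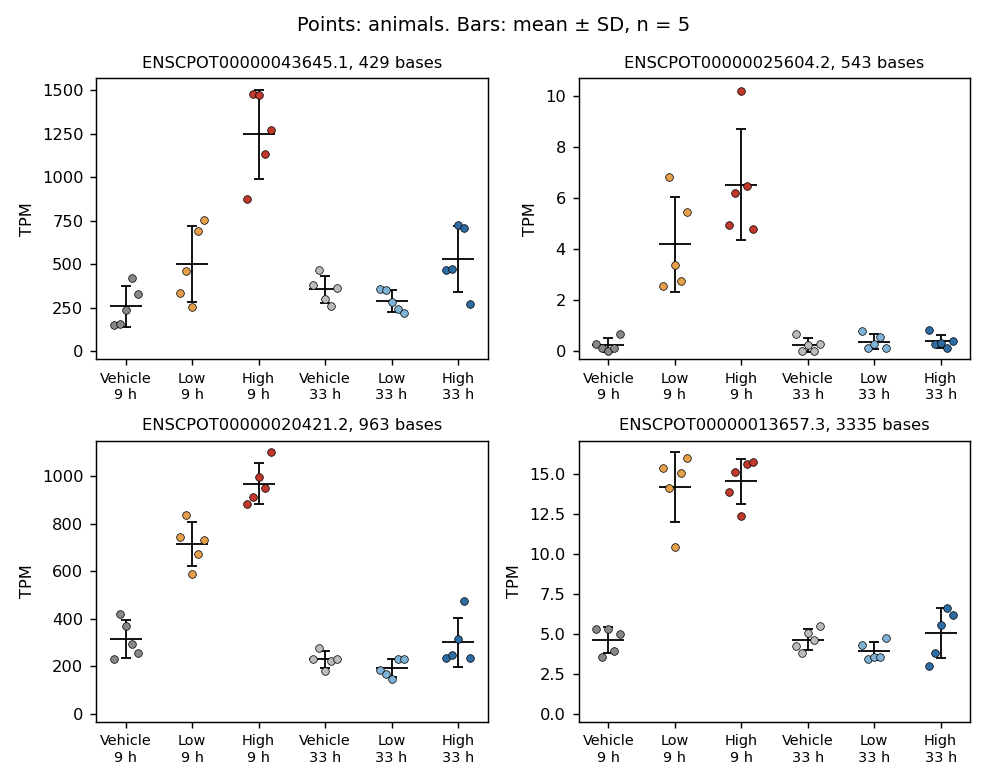
TPM of the 4 named transcripts in each animal (points), with the mean ± SD of 5 animals (bars), by dose and time. At 9 h every low dose animal lies below every high dose animal for ENSCPOT00000020421.2 and ENSCPOT00000043645.1, and the doses overlap for the other two.

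Against their own vehicle group, 28 of the 44 tested members were higher at the low dose at 9 h and 0 lower (edgeR; background 13.5% higher and 11.2% lower). At an unadjusted p under 0.05, 31 were higher and 0 lower, and DESeq2 called 31 higher and 0 lower, limma voom 26 and 0. Of the 34 members that would have been tested without the treated animals of 9 h, 22 were higher (64.7%), against 13.3% of transcripts that met the same condition. The median log2 fold change of the 44 was 1.44, against 0.00 for all tested transcripts. The vehicle animals of 9 h also entered the rule, which favours members whose vehicle level was low, so this count is less independent than the one between the low dose groups. In TPM, each of the 5 low dose animals stood above all 9 h vehicle animals for 26 members (59.1% of those tested, background 12.8%). Of the tested members, 25 were higher at low dose 9 h than in both the low dose animals of 33 h and the vehicle animals of 9 h (background 6.98%), and 15 were called higher in neither comparison.

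The low dose effect was larger at 9 h than at 33 h for 25 of the 44 and smaller for 0 (edgeR test of the difference of the effects; background 5.56% larger and 5.77% smaller at 9 h). At an unadjusted p under 0.05, 31 were larger and 0 smaller, while DESeq2 called 27 larger and 0 smaller and limma voom 19 and 0. Among the 34 members tested regardless of the treated animals of 9 h, 21 were larger (61.8%), against a background of 5.57%. Both vehicle groups of this difference entered the rule.

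At 33 h the low dose animals lay at or somewhat below vehicle, depending on the scaling. With TMM scaling 6 of the 44 were lower and 0 higher (edgeR; background 11.4% lower and 14.3% higher; DESeq2 6 lower and 1 higher, limma voom 4 and 1), while with library totals 0 were lower and 2 higher. The members' median log2 fold change was -0.33 with TMM and 0.01 with library totals, and that of all transcripts 0.03 and 0.36, so the members lay 0.35 and 0.34 below the median of all transcripts. The members lower with TMM had lengths of 657, 810, 963, 1590, 3335 and 8162 bases and log2 fold changes of -1.12 to -0.44. The share of members lower is near the background, and the count fell to 2 without low dose animal 4 or 5 or vehicle animal 1 or 2 of 33 h, and to 3 without low dose animal 2. At the high dose, in the contrast the rule used, 4 were lower and 0 higher with TMM (edgeR; background 22.5% lower and 28.2% higher; 6 lower and 0 higher at an unadjusted p under 0.05, 0 higher by DESeq2 and limma voom). With library totals 0 were lower and 3 higher.

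The low dose gave less than the high dose for most members at 9 h. Its rise over vehicle, as a share of the high dose rise in mean TPM, had a median of 40.9% with quartiles of 24.8% and 61.3%. The low dose mean lay between vehicle and high dose for 47 members, above the high dose for 5 and below vehicle for 2. Of the 44, 17 differed between the doses of that time, all higher at the high dose (edgeR; background 2.86% higher and 4.22% lower; 28 of 44 with limma voom). In TPM, every high dose animal stood above every low dose animal of 9 h for 15 of the 44 (34.1%, background 1.75%). The same held over every vehicle animal of 9 h for 38 (86.4%, background 8.73%) and of 33 h for 35 (79.5%, background 11.3%). Since high levels in the high dose animals were required, this direction and the share are partly fixed by the choice of members, and they are given without further reading. For comparison, the contrast of high dose and vehicle at 9 h, on which the rule rests, called 38 of the 44 higher (background 13.5%).

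Combining the calls at 9 h, 13 of the 44 tested members were higher at the low dose than in vehicle and higher again at the high dose (background 0.943%). The high dose and vehicle animals of this count entered the rule. The 810-base transcript is one of the 13. It measured 58.5, 36.1, 69.9, 46.1 and 39.6 TPM in vehicle animals at 9 h, 105, 117, 108, 215 and 228 TPM at the low dose, and 361, 417, 526, 346 and 317 TPM at the high dose. None of these groups overlapped. At 33 h its means were 54.8 ± 13.5 TPM (vehicle), 40.5 ± 7.05 TPM (low) and 52.1 ± 29.4 TPM (high, SD, n = 5 each). The 2401-base transcript was another, at 10.95 ± 2.02, 42.6 ± 11.4 and 75.1 ± 14.0 TPM at 9 h and 11.4 ± 3.32, 13.8 ± 2.96 and 17.0 ± 2.89 TPM at 33 h for vehicle, low and high dose (SD, n = 5 each).

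For 15 of the 44 the low dose was higher than vehicle with no rise called from the low to the high dose (background 12.6%). The 3492-base transcript had the highest low dose level relative to the high dose. It measured 14.99, 15.4, 15.1, 14.2 and 14.3 TPM at the low dose and 14.5, 10.8, 6.40, 11.9 and 6.17 TPM at the high dose, against 1.67, 1.92, 4.09, 1.25 and 4.36 TPM in vehicle animals of 9 h. The low dose animals lay close together and the high dose animals spread from near them to near the vehicle animals, and the log2 fold change of high over low dose was -0.40 ± 0.41 (SE, edgeR adjusted p = 0.631). A further 4 members were higher at the high than at the low dose and not called between the low dose and vehicle (background 1.92%). Among them the 1897-base transcript measured 17.5, 15.5, 12.3, 21.8 and 11.9 TPM in vehicle animals, 18.4, 14.5, 21.1, 20.6 and 13.5 TPM at the low dose, and 65.5, 50.5, 54.6, 60.5 and 36.4 TPM at the high dose at 9 h. Its low dose and vehicle animals overlapped, with a log2 difference of 0.05 ± 0.24 (SE, edgeR adjusted p = 0.911), and each high dose animal stood above them all. The remaining 12 tested members passed in neither comparison. High dose and vehicle animals behind these classes entered the rule, so the counts are given as a description.

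The 1926-base transcript had similar low dose means, of 184 ± 43.6 TPM at the earlier and 187 ± 73.0 TPM at the later time (SD, n = 5 each). Its low dose values were 174, 163, 128, 227 and 229 TPM at 9 h and 297, 227, 145, 136 and 130 TPM at 33 h, with vehicle means of 120 ± 29.0 and 98.9 ± 25.6 TPM (SD, n = 5 each). The low dose groups overlapped, and their log2 difference was 0.21 ± 0.27 (SE, edgeR adjusted p = 0.635). The only member called lower at 9 h between the low dose groups, of 4416 bases, measured 0.114, 0.257, 0.222, 1.18e-09 and 0 TPM at 9 h and 2.94, 3.80, 0.793, 4.04 and 1.14 TPM at 33 h, a log2 fold change of -4.12 ± 1.54 (SE, edgeR adjusted p = 0.0478). DESeq2, limma voom and the fit with no count filter did not call it. Its high dose values at 9 h were 2.83, 1.57, 0.252, 0 and 0.680 TPM, so 1 animal held 53.1% of that group's level.

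Vehicle means differed between the times for some members. At 33 h they were at least 1.5 times those at 9 h, with 0.1 TPM added, for 17 members and at most 0.67 times for 1. The rule favours members with a low vehicle level at 9 h, so this imbalance is partly fixed by the selection. The share of all transcripts beyond these ratios was not counted. Set against the vehicle animals of 33 h, the high dose at 9 h was at least 3-fold higher for 40 members, below 3-fold for 14 and below 1.5-fold for 6. The 8162-base transcript is the lowest of these, at 1.10-fold. Its vehicle animals measured 7.78, 5.05, 17.7, 6.17 and 8.33 TPM at 9 h and 40.2, 40.1, 6.35, 10.6 and 43.1 TPM at 33 h, and its high dose animals 48.4, 27.7, 21.1, 25.4 and 32.4 TPM at 9 h. Vehicle animals 3 and 4 of 33 h lay below every high dose animal of 9 h. The other 3 lay within the high dose range of 9 h. At 33 h the high dose animals measured 41.5, 52.9, 29.6, 25.0 and 22.1 TPM, all above every vehicle animal of 9 h. Their mean was 34.2 TPM, against 31.0 TPM at 9 h, so the high dose level did not fall. Nor did it for the 1408-base and 3861-base transcripts. Their means were 1.33 and 1.06 TPM at 9 h and 1.43 and 1.08 TPM at 33 h. For every other member the high dose mean was lower at 33 h. Among the 40 members, 32 were tested and 22 were higher at 9 h between the low dose groups, with a median log2 fold change of 1.57. That was 68.8% of those tested, against 48.7% of the 798 tested transcripts with the same ratio of at least 3, a far higher background than over all transcripts. Among the 14, 12 were tested and 4 were higher (33.3%, background 11% of transcripts below that ratio), with a median of 0.70. The 22 include the 4 called members that reached the minimum count only through the treated groups of 9 h, which favours a higher value there. The sets of 40 and 14 were formed after values were seen, and the difference between them was not tested.

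The 54 members had a median length of 1369.5 bases, against 2079 bases for all listed transcripts. The 44 tested members had a median of 1911.5 bases, against 2537 bases for all tested transcripts. By length class, 11.4% of the 44 tested were under 500 bases, against 3.17% of all tested. Of the 54, 24.1% were under 500 bases, and the share of all listed transcripts was not counted. Of the 10 untested members, 8 were under 500 bases. The part of length in the choice of members was not tested. In 6 members, 3 of them tested, 1 animal held over 50% of the group's level at the high dose, 9 h, and 0 of these 3 were higher between the low dose groups.

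Members also differed in how cleanly their reads were assigned. Counts were whole numbers in each of the 30 libraries, within 1e-06, for 27 of the 54, and for 24 of the 44 tested (54.5%), against 38.2% of all tested transcripts. Whole counts arise where no reads are divided with another transcript. Of the 24, 20 were higher at 9 h than at 33 h at the low dose (83.3%, background 16.4% of transcripts with whole counts), with a median log2 fold change of 1.71. Of the 20 with divided counts, 6 were higher (30.0%, background 10.4%), with a median of 0.68. The 20 called with whole counts include the 4 called members that reached the minimum count only through the treated groups of 9 h, which favours a higher value there. The split was made after values were seen and the difference was not tested.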

How the data were processed

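Poly-A-enriched, stranded liver libraries of 30 guinea pigs were quantified with kallisto 0.42.4, per the submitters' processing notes. The deposited files give estimated counts and TPM per transcript, made by the authors; per the file headers each row also has a length. The genome build is not given in the sources used here. The members, the lists and the tests were chosen with earlier results of these data known. The planned gene and marker lists could not be used, since no identifier matched a name.

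Estimated counts were rounded, filtered with edgeR 4.0.16 (filterByExpr, minimum count 10, minimum total 15), scaled by TMM and fitted with robust quasi-likelihood in 1 model of the 6 groups (R 4.3.3, 24 residual degrees of freedom). The 7 contrasts were adjusted by Benjamini-Hochberg over all 18239 tested transcripts. The SE is the log2 fold change over the root of F. Means and selection used TPM. Named members were the highest in TPM at high dose 9 h, the largest 9 h ratio, and the smallest adjusted p of 2 members lower at 33 h than at 9 h after the low dose. Alternatives were other scaling, filters, DESeq2 1.42.0, limma 3.58.1 (voom), compared groups alone and each animal left out. The fit of the low dose groups was tested on simulated data. It recovered 47.8% of 1.5-fold, 67.2% of 2-fold and 86.4% of 4-fold changes, with 2 false calls of 136. A member that was not called may therefore still differ. Alternatives for the high dose contrasts, the splits by whole counts and vehicle ratio, the added background shares, and the members described by length were chosen after the data were seen. Labels give no batch or date, and replicate numbers follow accession order.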

Additional observations from a re-analysis of the deposited data

Results flagged for a closer look

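For each of the 4 named transcripts the low dose effect differed between the times, by the test of the difference itself (edgeR, log2 effect at 9 h minus that at 33 h, 5 animals in each of 4 groups). The difference was 1.56 ± 0.43 for ENSCPOT00000043645.1 (SE, edgeR adjusted p = 0.0180). For ENSCPOT00000025604.2 it was 3.76 ± 1.05 (SE, edgeR adjusted p = 0.0193). For ENSCPOT00000020421.2 it was 1.74 ± 0.24 (SE, edgeR adjusted p = 3.90e-05), and for ENSCPOT00000013657.3 it was 2.16 ± 0.24 (SE, edgeR adjusted p = 4.56e-06). The vehicle animals in these differences also entered the choice of members. ENSCPOT00000025604.2 was tested only through the treated groups of 9 h, where it is high. ENSCPOT00000020421.2 and ENSCPOT00000013657.3 were named for their small adjusted p between the low dose groups, a difference that these effects contain, so their values are a description. That of ENSCPOT00000025604.2 did not pass with limma voom (adjusted p = 0.0525), with the compared groups alone (edgeR adjusted p = 0.0519) or without vehicle animal 1 of 33 h (2.95, edgeR adjusted p = 0.0991).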

How the results depend on the processing

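The list depends on the scaling: 118 transcripts met the rule on TMM-scaled TPM, 46 of them among the 54. Of the 104 of them tested, 62 were higher and 1 lower between the low dose groups. At 33 h the TMM factors were 0.822 to 0.894 in vehicle livers and 1.23 to 1.43 at the high dose, so that scaling lowers the 33 h ratio. A pseudocount of 0.01 TPM gave 48 (45 shared), one of 1 TPM 38 (19 shared) and medians 79 (40 shared). Leaving out 1 animal gave 48 to 66, and 19 members were in all 20 such lists. The count higher at 9 h between the low dose groups was 25 to 28 under other settings and 24 to 27 without single animals. That of low dose over vehicle at 9 h was 26 to 31 and 24 to 28, and that of the difference of effects 19 to 27 and 19 to 25. Members lower at the low dose at 33 h numbered 0 with library totals, 2 with no count filter and 2 to 6 without single animals. Members higher at high than low dose at 9 h numbered 28 with limma voom and 12 to 18 without single animals, and those lower at high dose 33 h 0 with library totals, 1 with compared groups alone and 2 to 6 without single animals (2 without high dose animal 2). The cause of these changes was not tested. For ENSCPOT00000043645.1 the low dose rise over vehicle at 9 h did not pass with compared groups alone (0.88, edgeR adjusted p = 0.108) or without low dose animal 4 or 5 or vehicle animal 1, 2 or 3. For the 4 named transcripts, none of the recomputed log2 fold changes between the low dose groups, of the low dose over vehicle at 9 h or of the difference of effects changed sign. With library totals the members' median log2 fold change against vehicle at 33 h turned from -0.33 to 0.01 at the low dose and from -0.27 to 0.31 at the high dose, with 2 and 3 members called higher, while all transcripts moved up too, to 0.36 and 0.70. Each animal gave 1 liver library in 1 group and the labels name no pairing between animals, so no paired analysis was made. Members under 100 counts in 5 libraries are limited by depth.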

Other observations

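Within the groups, single animals led many members. Low dose animal 5 was the highest of its group at 9 h for 25 of the 54 members and low dose animal 1 at 33 h for 25. High dose animal 3 led at 9 h for 21, and high dose animals 4 and 3 at 33 h for 18 and 13. The share of all transcripts led by each animal was not counted, so these leads are not shown to be particular to the members. In 34 of 315 sets of 5 values of 1 member (10.8%), 1 animal stood apart from the other 4 by Dixon's test. Among the sets for the named transcripts and the sum this held for 0 of 30. For normally distributed values the test gives about 1 in 20 by chance. TPM near 0 need not follow that distribution, so the 10.8% is not read as an excess.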
